A study of Mus musculus with 4 samples.

Results

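The genes described here are 9 genes of epithelial cell contacts and the epithelial skeleton: Epcam, Cdh1, Cldn3, Cldn4, Cldn6, Cldn7, Krt8, Krt18 and Spint2. They were taken as a fixed list and matched by Ensembl identifier, and all 9 were found among the 27514 genes that the gene tables of the 4 libraries share. Their levels were read in epithelial cells, taken as cells with at least 3 unique molecular identifiers (UMIs) of Epcam, and as background in the other cell groups. There were 957 such cells among 14243 cells in all.

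The cells came from mouse embryos of the Swiss Webster strain and were sorted for GFP and against the dead-cell dye DAPI before droplet capture with a kit that counts the 3′ ends of transcripts. Ctrl embryos were Tbx1Cre/+;Rosa26-GFPflox/+ and cKO embryos were Tbx1Cre/flox;Rosa26-GFPflox/+, each taken at embryonic day (E) 8.5, as the upper part of the body, and at E9.5, as the pharyngeal apparatus with the heart. Cre sits in the Tbx1 locus and disrupts that allele, so every group lacked 1 Tbx1 allele and the sorted cells were those in which this locus had been active or their descendants. Each of the 4 groups was a single library, so there is no replicate, no p-value and no spread between embryos. All ranges in brackets are 95% counting intervals. Genotype and library cannot be told apart, and neither can stage, dissection and library.

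The libraries held 1090 to 6266 cells with a median of 15910.5 to 23984 UMIs per cell, and any 2 of them shared at most 55 cell barcodes. The cKO E9.5 library had been counted on a table of 31053 genes and the others on one of 27998. Tbx1 itself had 103 UMIs per 1000000 UMIs (UPM) in the Ctrl library at E9.5 against 134 UPM in cKO, and 86.4 and 118 UPM at E8.5. A total of 3′ counts per gene does not show which exons were transcribed and so does not check the deletion. Each direction below is that of the library labelled cKO.

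Epithelial cells are held together by junction complexes that ring the cell. Cdh1 encodes E-cadherin, the adhesion receptor of adherens junctions. Claudins are the membrane proteins that seal, and set the permeability of, tight junctions. Epcam is a surface adhesion protein that binds Cldn7, and Spint2 is a transmembrane inhibitor of serine proteases that cleave Epcam and other surface proteins. Krt8 and Krt18 pair into the simple-epithelial keratin filaments and are also made in the early heart muscle of the embryo.

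In the mouse genome build GRCm38.p6 the adhesion genes lie at separate loci, Epcam (ENSMUSG00000045394) at chr17:87635979-87651127 and Cdh1 (ENSMUSG00000000303) at chr8:106603350-106670247. The claudin genes are Cldn3 (ENSMUSG00000070473) at chr5:134986214-134987476, Cldn4 (ENSMUSG00000047501) at chr5:134945123-134946934, Cldn6 (ENSMUSG00000023906) at chr17:23679348-23682446 and Cldn7 (ENSMUSG00000018569) at chr11:69964779-69967886. Cldn3 and Cldn4 are neighbours 39.3 kb apart. The keratin genes Krt8 (ENSMUSG00000049382) at chr15:101996711-102004342 and Krt18 (ENSMUSG00000023043) at chr15:102028216-102032026 lie 23.9 kb apart on opposite strands, and the protease inhibitor gene is Spint2 (ENSMUSG00000074227) at chr7:29256330-29282059. Cldn3 overlaps the gene Wbscr25, and no other member overlaps an annotated gene.

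The 250 bases before an annotated transcript start are shown for 6 members, because these genes share an epithelial pattern yet differ between genotypes at E9.5. The first 3 had lower levels in cKO E9.5 than in Ctrl E9.5 beyond the shift of all genes, and the last 3 lay at or above it. The sequences are from RefSeq on GRCm38.p6, 5′ to 3′ on the gene's strand, with each CAGGTG, read on either strand, in capitals. This is a form of the E-box, which repressors and activators of epithelial genes are known to bind.
Krt8, chr15:102004343-102004592, minus strand: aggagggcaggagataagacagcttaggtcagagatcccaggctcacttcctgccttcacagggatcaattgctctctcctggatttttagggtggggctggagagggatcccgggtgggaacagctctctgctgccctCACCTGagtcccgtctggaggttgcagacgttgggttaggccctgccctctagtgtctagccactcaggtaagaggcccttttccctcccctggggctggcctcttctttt
Krt18, chr15:102027966-102028215, plus strand: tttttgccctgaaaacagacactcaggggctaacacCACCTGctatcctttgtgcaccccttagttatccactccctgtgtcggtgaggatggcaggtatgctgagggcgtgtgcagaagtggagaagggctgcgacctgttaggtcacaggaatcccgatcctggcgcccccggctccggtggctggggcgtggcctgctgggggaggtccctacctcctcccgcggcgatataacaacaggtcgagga
Cldn4, chr5:134946935-134947184, minus strand: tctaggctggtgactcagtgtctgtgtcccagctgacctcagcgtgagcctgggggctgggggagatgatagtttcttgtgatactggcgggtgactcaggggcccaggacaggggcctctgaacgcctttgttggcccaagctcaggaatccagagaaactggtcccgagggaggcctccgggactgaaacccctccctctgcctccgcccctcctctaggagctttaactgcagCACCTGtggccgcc
Cldn6, chr17:23679115-23679364, plus strand: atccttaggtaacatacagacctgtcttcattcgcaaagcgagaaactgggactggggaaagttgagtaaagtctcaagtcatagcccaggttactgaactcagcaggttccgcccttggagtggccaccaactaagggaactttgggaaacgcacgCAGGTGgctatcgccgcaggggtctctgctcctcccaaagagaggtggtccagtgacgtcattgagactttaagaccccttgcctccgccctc
Spint2, chr7:29281978-29282227, minus strand: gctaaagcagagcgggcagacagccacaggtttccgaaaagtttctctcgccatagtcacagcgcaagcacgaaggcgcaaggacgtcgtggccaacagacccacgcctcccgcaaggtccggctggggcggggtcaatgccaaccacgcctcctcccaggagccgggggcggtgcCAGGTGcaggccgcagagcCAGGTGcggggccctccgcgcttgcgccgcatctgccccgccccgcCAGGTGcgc
Epcam, chr17:87635729-87635978, plus strand: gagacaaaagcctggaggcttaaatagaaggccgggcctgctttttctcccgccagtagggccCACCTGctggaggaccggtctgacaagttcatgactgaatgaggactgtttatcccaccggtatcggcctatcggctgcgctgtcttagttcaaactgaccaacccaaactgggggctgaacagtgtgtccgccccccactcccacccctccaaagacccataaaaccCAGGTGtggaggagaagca

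All 6 windows held the letters CAGGTG on at least 1 strand. Of the 8 member genes with an entry, 7 held it in at least 1 of their windows. Cldn3, which is not shown and was also lower in cKO E9.5, did not. Counted by window, it was in 7 of the 9 member windows and in 17.2% of all 32851 windows of that length from RefSeq. The 8 letters AACCGGTT, a form bound by grainyhead-like factors, were in none of the 9 member windows and in 0.116% of all windows. Among the 6 shown, lower members and the others both carried the capitals, and a match of letters is not a measured site.

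Epithelial cells were few at E8.5 and common in Ctrl E9.5. They were 14 of 1434 cells in Ctrl E8.5 (0.976%, Wilson interval 0.582 to 1.63) and 12 of 1090 in cKO E8.5 (1.10%, 0.631 to 1.91). At E9.5 they were 730 of 5453 cells in Ctrl (13.4%, 12.5 to 14.3) and 201 of 6266 in cKO (3.21%, 2.80 to 3.67). The E9.5 share was 4.17-fold higher in Ctrl (3.57 to 4.90). It was 5.37-fold higher when cells with at least 3 UMIs of mesenchyme, endothelial, cardiomyocyte or blood markers were not counted as epithelial. Those shares, 514 of 5453 and 110 of 6266, kept all cells in the total. At E8.5 the ratio of the shares lay anywhere from 0.381 to 2.10, so no difference was detectable at this depth.

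Some cells lay near the cut on Epcam, in cKO E9.5 more for its size than in Ctrl E9.5. In Ctrl E9.5, 30 cells had 2 Epcam UMIs, just outside it, and 46 had 3, just inside. In cKO E9.5 the numbers were 38 and 23. With the cut at 2 UMIs the E9.5 log2 ratio of cKO to Ctrl described below was -1.12 for Krt18, -0.38 for Cldn6 and -0.38 for Cldn7, and with the cut at 5 it was -1.05, -0.18 and -0.14. The cells counted as epithelial had a median of 18763 UMIs in Ctrl against 18481 in cKO at E9.5, and 17214.5 against 24755 at E8.5. The 10 markers of a separate epithelial list summed to 377 UPM in them against 15.7 UPM in the other cells of Ctrl E8.5, and to 306 against 7.90 in cKO E8.5. At E9.5 the sums were 360 against 13.2 UPM in Ctrl and 288 against 7.12 in cKO. Detection did not separate the 2 sets, since at least 9 of the 10 markers were also detected in the other cells. At E9.5, 704 of the 730 and 173 of the 201 fell in clusters that the full profile placed as epithelial-like.

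Epcam, Cldn6 and Spint2 were high in each library, and Cdh1 and Cldn3 were the lowest members. Levels are UPM within the epithelial cells. Since the kit counts 1 end per molecule, genes were compared without scaling to length. At E8.5 Epcam, which chose the cells, had 352 UPM in Ctrl against 357 in cKO, and at E9.5 442 against 405. Cldn6, a claudin of embryonic epithelia, followed at 335, 333, 424 and 372 UPM in that order of libraries. Spint2 had 263, 309, 314 and 323 UPM. Epcam was the higher of it and Cldn6 in all 4 libraries, with overlapping intervals, and their order was not tested. Spint2 came next except in Ctrl E9.5, where Krt18 did.

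The remaining claudins spanned a wide range. Cldn7 had 178, 131, 181 and 157 UPM, again for Ctrl and cKO at E8.5 and then at E9.5. Cldn4 had 123, 55.0, 87.8 and 51.2 UPM. Cldn3 was the lowest claudin, with 4 and 5 UMIs at E8.5 and 45.2 and 26.6 UPM at E9.5. Cdh1 was as low as Cldn3, at 33.9, 41.2, 25.6 and 18.9 UPM, with overlapping intervals for this pair in all libraries but Ctrl E9.5.

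The keratins were higher in Ctrl E9.5 than in the other libraries. At E8.5 Krt18 had 178 UPM in Ctrl (128 to 241) against 179 in cKO (133 to 234), and at E9.5 it had 395 (385 to 405) against 205 (191 to 219). Krt8 had 127 (85.8 to 181), 103 (69.6 to 147), 226 (218 to 234) and 152 UPM (140 to 164). Ctrl E9.5 stood above the other 3 libraries for both keratins, with no overlap of its interval with theirs. Krt18 was above Krt8 in all 4. In Ctrl E8.5 this rested on 42 and 30 UMIs, where Krt8 made up 41.7% of both (30.2 to 53.9), so the order there is not resolved.

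**Figure D1:**
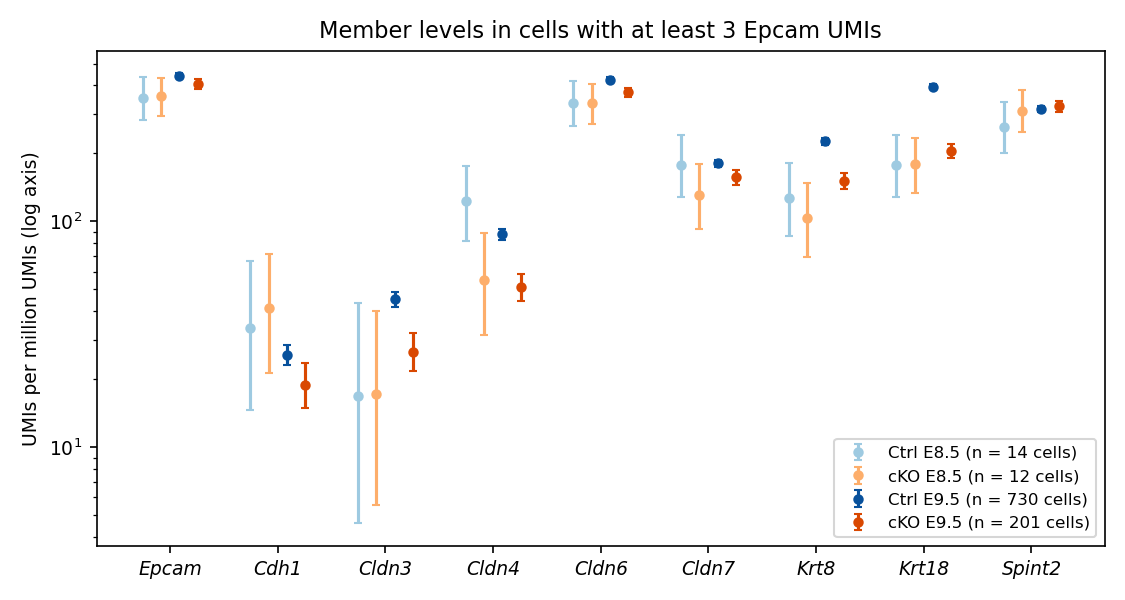
Level of each member in cells with at least 3 Epcam UMIs, in UPM on a log axis, with points for the 4 libraries and bars for 95% Poisson intervals. Epcam, Cldn6 and Spint2 sit high in every library, Cdh1 and Cldn3 sit lowest, and Krt8, Krt18, Cldn3 and Cldn4 are lower in cKO E9.5 than in Ctrl E9.5.

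Between genotypes at E9.5, the lower members were Krt18, Cldn4, Cldn3 and, to a lesser degree, Krt8. The log2 ratio of cKO to Ctrl was -0.95 (-1.05 to -0.84) for Krt18, -0.78 (-0.997 to -0.566) for Cldn4, -0.77 (-1.08 to -0.47) for Cldn3 and -0.58 (-0.70 to -0.45) for Krt8. Spint2 lay at the other end with 0.04 (-0.05 to 0.13). The members' order was thus not the order of their levels, since Krt18 and Spint2 were both abundant.

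These ratios stand against a shift of the whole profile. Over the 11877 genes with at least 20 UMIs the median log2 ratio was -0.20, and the scaling factors of TMM and of the median of ratios moved every value up by 0.19 and 0.20. Cldn6, at -0.19, and Cldn7, at -0.20, lay at that median and had 0.01 and -0.01 with TMM. Relative to the median of all genes, Krt18 was at -0.75, Cldn4 at -0.58, Cldn3 at -0.57, Krt8 at -0.38, Cdh1 at -0.23 and Spint2 at 0.24.

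Past 1.5-fold lower lay 3 of the 8 members other than Epcam, namely Krt18, Cldn4 and Cldn3, while 19.5% of all genes tested were past it in that direction, and 13.9% when the interval also had to be clear of 0. No member was past 1.5-fold higher, where 6.95% of all genes were. With TMM scaling 6.5% of genes were past the fold and clear of 0 on the lower side and 7.81% on the higher side, against 13.9% and 4.8% without it. Krt18 was past 1.5-fold in all 11 settings tried, with log2 ratios from -1.12 to -0.75. Cldn3 and Cldn4 came as close to 0 as -0.57 and -0.58, just short of it, with the median of ratios, and Krt8 ranged from -0.80 to -0.38. The median of the 8 members was -0.51, beside -0.20 for all genes.

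At E8.5 the same comparison rested on 14 and 12 cells. Cldn4 was the only member past 1.5-fold, with 29 UMIs in Ctrl and 16 in cKO and a log2 ratio of -1.16 (-2.14 to -0.23). Of all 3256 genes tested at that stage 12.4% were past the fold on the lower side and 12.7% on the higher side, or 4.42% and 3.81% with the interval clear of 0. Krt18 was at 0.01 (-0.61 to 0.63) and Krt8 at -0.30 (-1.08 to 0.48), so a difference of the size seen at E9.5 in Krt8 lies inside the interval. That of Krt18, at -0.95, lies outside its interval here but inside it in other settings. With the cut at 2 Epcam UMIs the E8.5 interval of Krt18 was -0.985 to 0.224, and in thinned cells it was -1.09 to 0.931. Cldn3 had too few UMIs to be tested. Whether the genotype ratios differ between the stages was not tested.

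**Figure D2:**
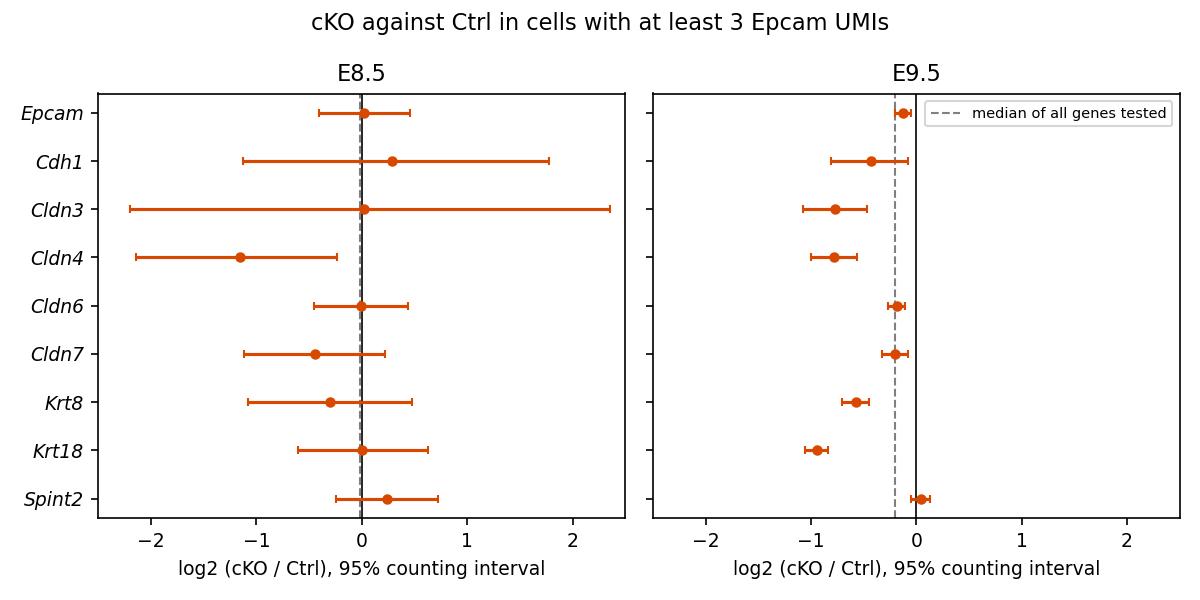
log2 ratio of cKO to Ctrl for each member in cells with at least 3 Epcam UMIs, at E8.5 on the left and E9.5 on the right. Bars are 95% counting intervals, the solid line is 0 and the dashed line is the median of all genes tested. At E9.5 Krt18, Cldn4, Cldn3 and Krt8 lie left of the dashed line with their whole intervals, and Spint2 lies right of it.

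The difference in Krt18 was spread over cells. With every cell thinned to 10000 UMIs, the median cell held 4 Krt18 UMIs in Ctrl E9.5 (quartiles 2 and 6, highest 25) and 2 in cKO E9.5 (quartiles 1 and 3, highest 12). A Krt18 UMI was seen in 94.2% of 703 thinned Ctrl cells (exact interval 92.2 to 95.8) and in 80.2% of 197 cKO cells (73.9 to 85.5). Unthinned, the median cell held 7 and 3. For Spint2 the shares were 94.6% (92.7 to 96.1) and 94.4% (90.2 to 97.2), with a median of 3 UMIs in both libraries.

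Detection of the low members also differed between the libraries. Cldn4 was seen in 53.1% of thinned Ctrl E9.5 cells (49.3 to 56.8) and 36.0% of cKO E9.5 cells (29.3 to 43.2). Cldn3 was seen in 30.4% (27.1 to 34.0) and 22.8% (17.2 to 29.3), and Cdh1 in 20.2% (17.3 to 23.4) and 14.7% (10.1 to 20.5), so the intervals overlap for Cdh1 and Cldn3 and not for Cldn4.

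The makeup of the epithelium differed between the E9.5 libraries. Cells were assigned to pharyngeal endoderm, surface ectoderm or otic epithelium from markers of these regions. Endoderm cells were 319 of 730 in Ctrl (43.7%, 40.1 to 47.3) and 59 of 201 in cKO (29.4%, 23.5 to 36.0). Otic cells were 73 (10.0%, 8.03 to 12.4) and 7 (3.48%, 1.70 to 7.01), and surface ectoderm cells were 210 (28.8%, 25.6 to 32.2) and 70 (34.8%, 28.6 to 41.6). The rest carried no leading region, 128 in Ctrl and 65 in cKO.

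Within the Ctrl E9.5 library the regions had different profiles of these genes. Surface ectoderm was above endoderm in Krt8, at 303 against 208 UPM, a log2 ratio of 0.54 (0.43 to 0.65), and below it in Cldn4, at 66.4 against 108 UPM, a ratio of -0.71 (-0.92 to -0.50). Cldn6 was also higher in surface ectoderm, at 488 against 386 UPM, with a ratio of 0.34 (0.25 to 0.43). The same directions were found in cKO E9.5, where the interval was clear of 0 for Krt8 and Cldn6 but not for Cldn4. Krt18 had ratios of only -0.13 in Ctrl and -0.15 in cKO between these regions.

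Otic epithelium of Ctrl E9.5 was low in Krt18, Cldn4 and Cdh1. Krt18 had 250 UPM there against 456 in endoderm, a log2 ratio of -0.87 (-1.02 to -0.72). Cldn4 had 46.8 against 108 UPM, a ratio of -1.21 (-1.58 to -0.87), and Cdh1 had 14.3 against 31.5 UPM, a ratio of -1.14 (-1.83 to -0.51). Cldn7 went the other way, with 227 against 167 UPM and a ratio of 0.45 (0.27 to 0.62). The medians of all genes in these contrasts were within 0.02 of 0.

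The keratins were lower in cKO E9.5 within both large regions. In endoderm Krt18 had 456 UPM in Ctrl and 247 in cKO, a log2 ratio of -0.88 (-1.06 to -0.71), and Krt8 had 208 and 114 UPM, a ratio of -0.87 (-1.13 to -0.62). In surface ectoderm Krt18 had 418 and 222 UPM, a ratio of -0.91 (-1.09 to -0.74), and Krt8 had 303 and 183 UPM, a ratio of -0.73 (-0.93 to -0.53). The medians of all genes were -0.21 and -0.20. Both keratins were thus lower among the cells assigned to each of these regions, and the makeup within a region was not tested.

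Cldn4 and Cldn3 were also lower in cKO within both regions, and Spint2 was not. Cldn4 had 108 and 63.4 UPM in Ctrl and cKO endoderm, a log2 ratio of -0.78 (-1.13 to -0.44), and 66.4 and 49.8 UPM in surface ectoderm, a ratio of -0.42 (-0.82 to -0.03). Cldn3 had ratios of -0.83 (-1.37 to -0.33) and -0.54 (-1.09 to -0.02). Spint2, at 295 and 296 UPM in endoderm and 355 and 339 UPM in surface ectoderm, was level in both. In the 7 otic cells of cKO, Krt8 had 36 UMIs and a ratio of 0.41 (-0.13 to 0.91), too few to place it.

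**Figure D3:**
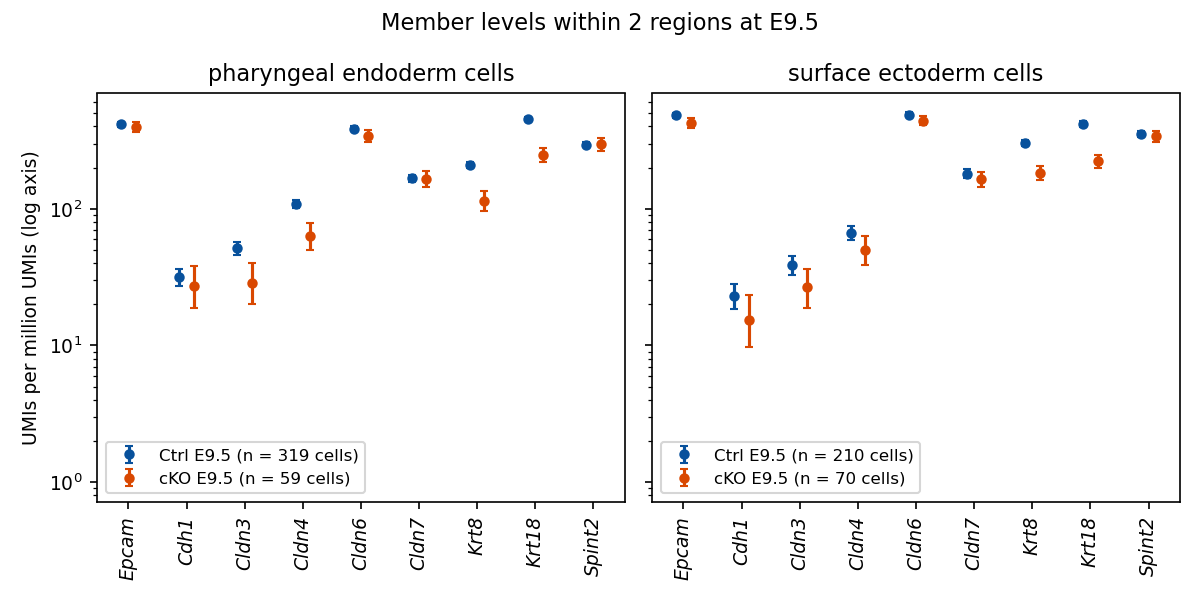
Member levels at E9.5 within cells assigned to pharyngeal endoderm (left) and surface ectoderm (right), in UPM on a log axis, with 95% Poisson intervals. In both panels Krt8 and Krt18 of cKO lie below those of Ctrl, while Epcam, Cldn7 and Spint2 lie close together.

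In cells without a leading region Krt18 was lower and Krt8 was not clear of 0. Their Krt18 had 294 UPM in Ctrl against 146 in cKO at E9.5, which is a ratio of -1.01 on the log2 scale (-1.26 to -0.78), whereas Krt8 was at -0.21 (-0.47 to 0.05). Over all epithelial cells, neural markers moved with the genotype. Of these cells 12 of 730 in Ctrl and 23 of 201 in cKO lay in a cluster led by Tubb3 and Neurod1, genes of young neurons. The summed level of 10 neural markers was 175 UPM in Ctrl and 352 in cKO, with 9 detected in each and Sox1 at 0. Without the cells of neural-like clusters, Krt8 had a ratio of -0.75 (-0.89 to -0.60) and Cldn6 one of -0.08.

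Other lineages' markers were present in the epithelial cells. Between Ctrl and cKO E9.5, 8 mesenchyme markers summed to 58.6 and 95.7 UPM, 8 cardiomyocyte markers to 56.4 and 107 UPM, 8 endothelial markers to 51.7 and 40.3 UPM, and 7 blood markers to 1.25 and 2.71 UPM. The 8 second heart field or progenitor markers summed to 156 and 137 UPM. The 8 somitic mesoderm markers, which share Pax1 with the endoderm list, summed to 149 and 160 UPM. At E8.5 the cardiomyocyte markers had 174 UPM in Ctrl and 51.6 in cKO, and the endothelial ones 110 and 51.6 UPM. Cells with at least 3 UMIs of the mesenchyme, cardiomyocyte, endothelial or blood markers were 216 of 730 and 91 of 201 at E9.5. At E8.5 they were 12 of 14 in Ctrl and 9 of 12 in cKO. With those cells left out at E9.5, Cldn4 had a log2 ratio of -1.07 and Cldn7 one of -0.05. The part of mixed droplets in the other values was not tested.

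Most epithelial cells held a UMI of several members. Whether members were seen together beyond their separate detection rates was not tested. In thinned cells the median number of the 8 members other than Epcam with a UMI was 5 in each library. At least 6 were seen in 49.2% of Ctrl E9.5 cells (45.5 to 53.0) and 27.4% of cKO E9.5 cells (21.3 to 34.2), and all 8 in 3.84% and 2.54%. At most 2 were seen in 6 of 703 Ctrl cells (0.853%, 0.314 to 1.85) and 12 of 197 cKO cells (6.09%, 3.19 to 10.4). Of those 12, 5 were in neural-like clusters and 4 in epithelial-like ones. Among cells with fewer than 3 Epcam UMIs, at least 6 members were seen in 13 of 4195 Ctrl E9.5 cells and 6 of 5351 cKO E9.5 cells. These include cells of epithelial-like clusters below the cut.

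**Figure D4:**
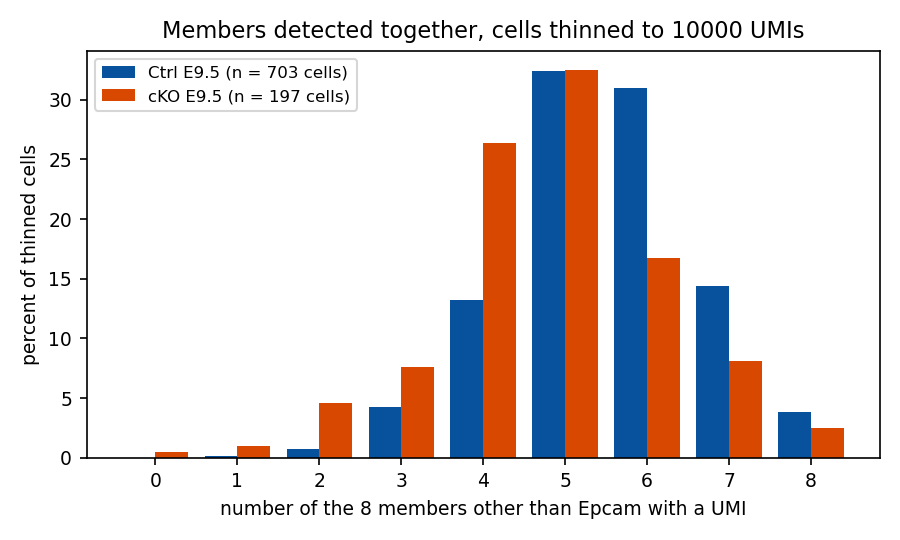
Percent of epithelial cells at E9.5 by how many of the 8 members other than Epcam had a UMI, after thinning each cell to 10000 UMIs. Both libraries have their median at 5, and Ctrl has more cells with 6 or more, at 49.2% against 27.4%.

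From E8.5 to E9.5 the keratins were higher in Ctrl. Krt18 went from 178 to 395 UPM, a log2 ratio of 1.15 (0.71 to 1.62), and Krt8 from 127 to 226 UPM, a ratio of 0.83 (0.31 to 1.40). Cldn3 had a ratio of 1.42 (0.05 to 3.30) from 4 UMIs at E8.5. These 3 of 8 members were past 1.5-fold higher, as were 22.6% of the 11517 genes tested, or 4.78% with the interval clear of 0, and the median of all genes was -0.04. No member was past it on the lower side, where 29.0% of genes were, or 3.09% with a clear interval. A sum without a UMI was set to 3 UMIs for the ratio, which is a high level in the small E8.5 sum. The 29.0% thus also held genes without a UMI at E8.5 that were detected at E9.5, and the 3.09% did not. The same floor enters the 22.6% and the median of all genes.

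In cKO the keratins were closer between stages. Krt18 went from 179 to 205 UPM, a log2 ratio of 0.20 (-0.21 to 0.63), and Krt8 from 103 to 152 UPM, a ratio of 0.56 (0.03 to 1.14). Cdh1 was past 1.5-fold lower, from 41.2 to 18.9 UPM on 12 and 77 UMIs, a ratio of -1.12 (-2.01 to -0.11), where 19.2% of genes were, or 5.05% with a clear interval. Cldn3 was past it on the higher side at 0.63 (-0.64 to 2.28), where 20.6% of genes were, or 4.24% with a clear interval, which that of Cldn3 was not. Through the same floor the 19.2% also held genes without a UMI in cKO E8.5. The stage ratios share their E9.5 and E8.5 libraries with the genotype ratios and are not independent of them.

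The wider junction genes came from lists of 76 genes that do not hold the members. At E9.5, 67 of these had enough UMIs, and 14 were lower and 4 higher in cKO past 1.5-fold with the interval clear of 0, beside 13.9% and 4.8% of all genes. Their median log2 ratio was -0.33, beside -0.20 for all genes. With TMM scaling the counts were 7 and 7, beside 6.5% and 7.81% of all genes.

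Of the tight junction genes, the longest list, 7 of 19 tested were lower and 1 was higher, with a median of -0.48, beside the same 13.9% and 4.8% of all genes. Marveld3, a tight junction membrane protein, had 5.65 UPM in Ctrl and 2.21 in cKO, a log2 ratio of -1.35 (-2.53 to -0.36), which was -0.72 (-1.69 to 0.14) in the epithelial-like clusters. Cldn5, the claudin of endothelial cells, had 49 and 2 UMIs and a ratio of -2.80 (-5.88 to -0.87), and in those clusters it had 15 and 2 UMIs with an interval that spanned 0 (-4.18 to 1.10). Cldn11 was the higher gene, at 17.8 and 42.3 UPM and a ratio of 1.25 (0.96 to 1.54). Cldn11 was higher in surface ectoderm at 0.72 (0.34 to 1.09) but had -1.09 (-2.59 to 0.11) in endoderm.

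Adherens junction genes had no gene past the call of 9 tested, beside 13.9% lower and 4.8% higher of all genes, with a median of -0.29. Ctnnb1, encoding beta-catenin, had 239 and 174 UPM, a log2 ratio of -0.46 (-0.58 to -0.34). Of 7 desmosome genes tested 2 were lower, beside the same 13.9% of all genes. They were Pkp2 at -0.77 (-1.23 to -0.33) and Dsp, encoding desmoplakin that anchors keratin filaments, at -0.59 (-1.23 to -0.0033). Dsp was at -0.44 without the neural-like cells and was then no longer past 1.5-fold.

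Of the other keratins none of 6 tested was past the call, which Krt8 also missed, beside 13.9% lower and 4.8% higher of all genes. Their median was 0.12, above that of all genes. The difference between keratins was not tested. Krt7 had 63.0 and 72.1 UPM and a log2 ratio of 0.20, and Krt19 had 47.1 and 36.2 UPM and a ratio of -0.38 (-0.65 to -0.12). At E8.5 Krt19 was lower, with 34 and 21 UMIs in Ctrl and cKO, or 144 and 72.2 UPM, with an interval of -1.86 to -0.17. Ctnnb1 had 0.62 (0.01 to 1.24) at that stage. These were the only listed genes called at E8.5, out of 13 tested, beside 4.42% lower and 3.81% higher of all genes.

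The membrane protease system around Spint2 had 2 lower genes of 6 at E9.5, beside 13.9% of all genes. St14, encoding the protease matriptase, had 26.2 and 11.6 UPM and a log2 ratio of -1.18 (-1.65 to -0.74). Spint1, encoding a related inhibitor, had 48.7 and 30.5 UPM and a ratio of -0.67 (-0.96 to -0.40), or -0.52 without neural-like cells. Spint2 itself was level, as given above.

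Among 10 epithelial regulators tested at E9.5, 2 were lower, beside 13.9% of all genes. Esrp2, a splicing regulator of epithelia, had 42 and 2 UMIs, a log2 ratio of -2.57 (-5.67 to -0.63), and Ovol1, a transcription factor, had 60 and 6 UMIs, a ratio of -1.50 (-3.01 to -0.30). Both were scarce, at under 5 UPM in Ctrl. Grhl2, a transcription factor that drives epithelial junction genes, had 15.3 and 15.2 UPM and a ratio of -0.01 (-0.44 to 0.40).

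The mesenchymal counterparts split in direction at E9.5, with 3 higher and 1 lower of 10, beside 4.8% and 13.9% of all genes. Zeb1, a repressor of epithelial genes, had 3.49 and 19.2 UPM and a log2 ratio of 2.46 (1.93 to 3.00), which was 1.36 (0.56 to 2.14) without neural-like cells. Zeb2 had a ratio of 1.56 (0.93 to 2.19), which was -0.40 (-1.61 to 0.65) without them and 2.63 (1.43 to 3.95) in surface ectoderm. Fn1, encoding the matrix protein fibronectin, was the lower gene at 276 and 98.1 UPM, a ratio of -1.49 (-1.64 to -1.34), and it was lower in endoderm and in surface ectoderm too, at -1.33 and -1.85. Snai1 and Snai2, further repressors, had 0.10 and 0.05.

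Outside the epithelium the junction members were near background and the keratins were not. In cells with fewer than 3 Epcam UMIs of Ctrl E9.5, Cldn6 had 4.22 UPM and was 100-fold higher in the epithelium, and Cldn7 was 88.0-fold higher. Krt18 had 33.6 UPM and was 11.8-fold higher in the epithelium (11.2 to 12.3), Krt8 10.2-fold and Spint2 29.8-fold. The folds in cKO E9.5 were 206 for Cldn6, 9.87 for Krt8 and 27.9 for Spint2. Cells of epithelial-like clusters below the Epcam cut, 44 in Ctrl and 21 in cKO, held much of this Cldn6 and Cldn7. They had 216 of the 337 Cldn6 UMIs in Ctrl E9.5 and 97 of the 182 in cKO E9.5. For Cldn7 they had 86 of 164 and 38 of 108. The folds of these claudins thus compare the epithelium with cells that still include epithelial-like ones. The part of free RNA in these background levels was not tested.

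Blood-like cells served as a group that should lack these genes. The 18 of Ctrl E9.5 had no UMI of any member. The 53 of cKO E9.5 had 1 of Krt8, 2 of Krt18 and 1 of Spint2, at a median depth of 7346 UMIs. The 14 of Ctrl E8.5 had none, and the 10 of cKO E8.5 had 14 UMIs of Krt8, 8 of Krt18, 5 of Spint2, 4 of Cldn6 and 2 each of Cldn3 and Cldn7, so these few cells were not free of the members. In 799 mesenchyme-like cells of Ctrl E9.5, Krt18 was seen in 6.85% of thinned cells (5.13 to 8.93), and Cldn6 had 1.08 UPM and was seen in 1.10% (0.474 to 2.15). These were far below the 94.2% and 96.2% of thinned epithelial cells.

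**Figure D5:**
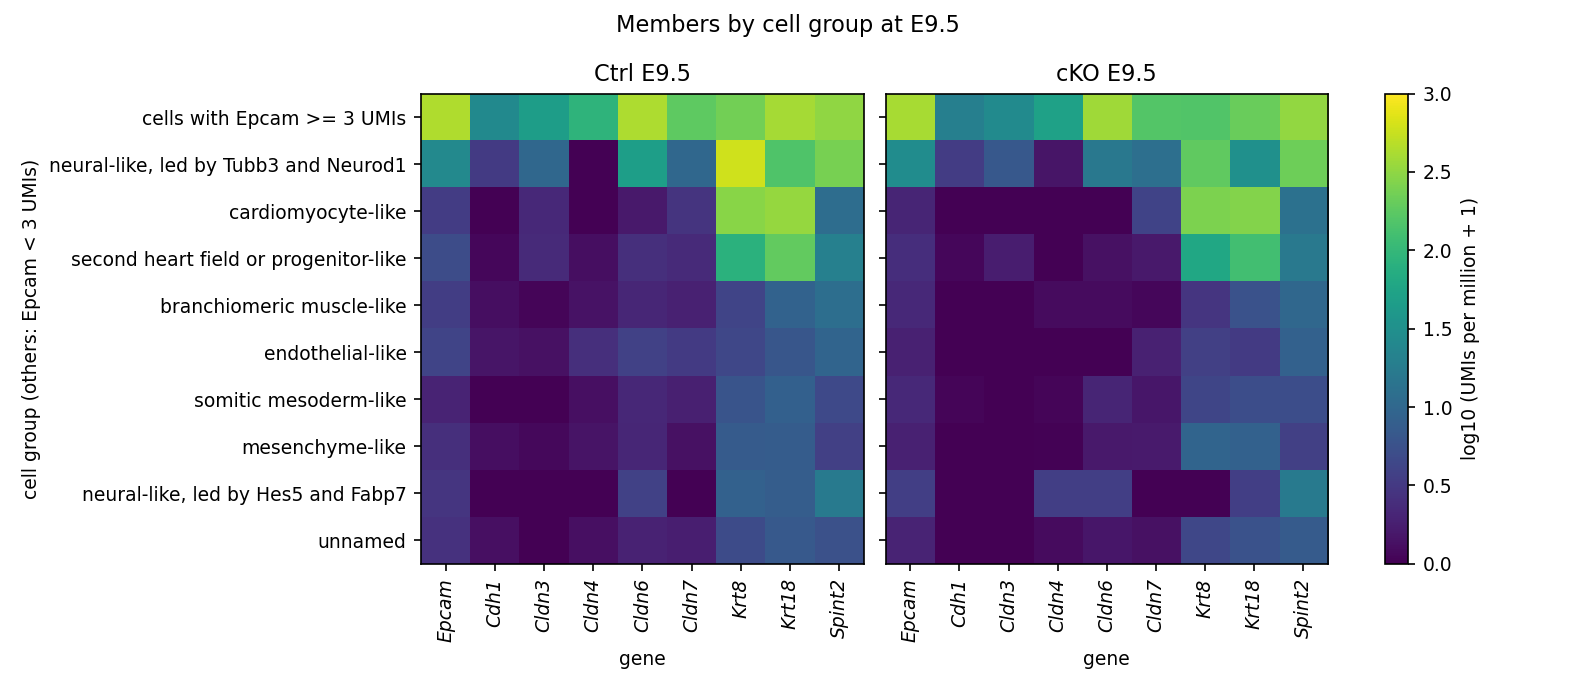
Members (columns) in cell groups (rows) of Ctrl E9.5 and cKO E9.5, coloured by log10 of UPM plus 1. Rows below the top hold cells with fewer than 3 Epcam UMIs. Both keratins are near epithelial levels in cardiomyocyte-like cells, Krt8 but not Krt18 is above its epithelial level in Tubb3 and Neurod1 led cells, and Cdh1 and Cldn4 are near 0 in both groups.

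Cardiomyocyte-like cells had more of both keratins than the epithelium, except for Krt18 in Ctrl E9.5, and did so without its claudins. In these cells Krt18 was at 83.9% of its epithelial level in Ctrl E9.5 and at 134% in cKO E9.5. At E9.5 their Krt18 had 331 UPM in Ctrl (304 to 360) and 275 in cKO (243 to 309), and their Krt8 had 294 and 255 UPM. At E8.5 Krt18 had 598 UPM in 16 Ctrl cells and 306 in 14 cKO cells, and Krt8 had 518 and 391. No UMI of Cdh1 or Cldn4 was found in these cells in any of the 4 libraries, and Cldn6 had 1 UMI in all. In thinned cells of Ctrl E9.5 a Krt18 UMI was seen in 76 of 92.

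Second heart field or progenitor-like cells, which feed the growing heart tube, held less keratin than cardiomyocyte-like cells, and less than the epithelium at E9.5 but not in Ctrl E8.5. Their Krt18 had 213 UPM in Ctrl against 145 in cKO at E8.5, and 187 against 123 at E9.5, and their Krt8 had 170, 83.8, 81.6 and 59.9 UPM. Cldn4 and Cldn6 had at most 1.55 UPM in any of them. In branchiomeric muscle-like, endothelial-like, somitic and mesenchyme-like cells of both E9.5 libraries both keratins were under 10 UPM.

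Neural-like cells of the cluster led by Tubb3 and Neurod1 had Krt8 without a matching level of Krt18. With fewer than 3 Epcam UMIs there were 25 such Ctrl cells and 103 such cKO cells at E9.5. Krt8 had 602 UPM (532 to 678) and 183 UPM (165 to 203), and Krt18 had 149 and 31.2 UPM. Krt8 made up 80.1% of the UMIs of both keratins in Ctrl (75.5 to 84.2) and 85.5% in cKO (81.8 to 88.6). In the epithelium it made up 36.4% (35.4 to 37.4) and 42.5% (39.9 to 45.1), and in cardiomyocyte-like cells 47.0% and 48.2%.

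Spint2 also had a high level in this cluster. It had 243 UPM in the Ctrl cells of the cluster and 218 in the cKO cells, or 77.3% and 67.5% of the epithelial level. Epcam had 24.5 and 27.8 UPM there and Cldn6 46.8 and 14.9 UPM. The other neural-like cluster, led by Hes5 and Fabp7, had Spint2 at 16.0 and 15.7 UPM and no more than 8 UMIs of either keratin at E9.5. Cells of the epithelial-like clusters that fell below 3 Epcam UMIs, 44 in Ctrl and 21 in cKO E9.5, had Krt18 at 594 and 175 UPM and Cldn6 at 422 and 269 UPM.

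The genotype difference of Krt18 outside the epithelium depended on the cell group. Over all cells with fewer than 3 Epcam UMIs at E9.5 it was 33.6 UPM in Ctrl and 18.6 in cKO, a log2 ratio of -0.85 (-0.94 to -0.77). It was -0.60 (-0.72 to -0.49) in second heart field or progenitor-like cells, -0.27 (-0.49 to -0.06) in cardiomyocyte-like cells and 0.21 (-0.18 to 0.60) in mesenchyme-like cells. The median of all genes was between -0.22 and -0.19 in these 3 groups. Among other groups, Krt18 was at -0.85 (-1.47 to -0.22) in somitic mesoderm-like cells and -0.75 (-1.35 to -0.18) in branchiomeric muscle-like cells. It was at -1.26 (-2.95 to 0.07) in endothelial-like cells. The epithelial-like cells below the Epcam cut, also part of the pooled value, had -1.76 (-2.18 to -1.37). These groups also differ in level and in their number of cells between the libraries. Clusters that could not be named held 1930 Ctrl cells and 2954 cKO cells at E9.5, with both keratins under 10 UPM.

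Krt8 at E9.5 had a log2 ratio of -0.44 (-0.62 to -0.27) in second heart field or progenitor-like cells. It had -0.20 (-0.43 to 0.02) in cardiomyocyte-like cells and 0.41 (0.03 to 0.80) in mesenchyme-like cells. In the Tubb3 and Neurod1 led cells it was at -1.72 (-1.94 to -1.49) and Krt18 at -2.26 (-2.77 to -1.75), from 25 cells in Ctrl. At E8.5 Krt8 over all cells outside the epithelium was at -0.44 (-0.61 to -0.27) and Krt18 at -0.27 (-0.41 to -0.12), beside 0.04 for all genes. Spint2 outside the epithelium was at 0.13 (0.005 to 0.26) at E9.5, beside -0.23 for all genes. The Tubb3 and Neurod1 led cells held 455 of its 1164 UMIs in cKO and 109 of its 843 in Ctrl. Within those cells Spint2 was at -0.15 (-0.46 to 0.16), and in the clusters without a name at 0.46 (0.16 to 0.76). The pooled value without the Tubb3 and Neurod1 led cells was not tested.

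Across 39 combinations of library and cell group with at least 20 cells, each junction member followed the mean of the other members closely and the keratins less so. The points share libraries and depths. They also include the cells chosen by Epcam, itself a member, and epithelial-like clusters, beside groups with little of the junction members. A high Pearson's r for genes of the epithelium follows from that choice, so r is given as a description only. It was 0.87 to 0.96 for Epcam, Cdh1, the claudins and Spint2, 0.76 for Krt18 and 0.73 for Krt8. The 10 other genes most like the mean of the 9, of 12108 ranked, had r from 0.94 to 0.96, with the same limit. They were Smim22, Mapk13, Stard10, Ap1m2, Esrp1, Krt7, Klc3, Rab25, Mpzl2 and Cyb561. In Ctrl E9.5 epithelium they had 14.6 UPM for Smim22 up to 63.0 UPM for Krt7, all below the level of Cldn4 there, and Smim22, Klc3 and Cyb561 were below every member.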

How the data were processed

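The deposited values are raw UMI counts, made by the authors with Cell Ranger 3.1.0 per the submitters' processing notes, on the mouse genome mm10. The headers of both E8.5 matrices name an earlier version of that software, and the conflict could not be settled. The counts were not normalized, and no annotation of cells was used. Every deposited barcode was kept. Members, lists and comparisons were chosen with earlier results of these data known.

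Counts of all cells in a group were added up and given per 1000000 UMIs of the 27514 shared genes (UPM) in Python 3.11.15 (scipy 1.17.1). Sums carry exact Poisson intervals, ratios exact conditional binomial intervals, shares of cell groups Wilson intervals, and detection rates Clopper-Pearson intervals. They cover counting error only, at 95%. Genes with at least 20 UMIs in both sums together were compared, and a gene was called past 1.5-fold, with the interval clear of 0 where stated. For the ratio a sum of 0 was set to a floor of 3 UMIs. The ratio was tested on simulated data. Detection rates were read after drawing 10000 UMIs from each cell, which dropped cells with fewer (135, 84, 555 and 718 cells of Ctrl E8.5, cKO E8.5, Ctrl E9.5 and cKO E9.5).

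Clusters came from Seurat 5.3.0 in R 4.3.3 (30 components, resolution 1, 2000 variable genes, libraries integrated). A cluster was named for the class with most markers raised 1.5-fold, needing at least 3, a rule adjusted after the clusters were seen. No doublet caller was run, and cells with markers of other lineages were left out as an alternative. Scaling factors came from edgeR 4.0.16 (TMM) and DESeq2 1.42.0 (median of ratios).

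All 9 members were named. From each junction list and genotype comparison up to 3 called genes with the largest log2 ratio were named, and the 10 genes most like the members. Ctnnb1 at E9.5, Krt7, Krt19 at E9.5, Grhl2, Snai1 and Snai2 were named outside this rule after their values were seen.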

Additional observations from a re-analysis of the deposited data

How the results depend on the processing

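The limits are 1 library per group, 14 and 12 epithelial cells at E8.5, a different gene table for cKO E9.5, and markers of other lineages in part of the epithelial cells. No paired analysis was possible because each group has a single library. The log2 ratio of the epithelial shares at E9.5 was -2.06 and became -2.42 with possible doublets not counted as epithelial. Outside the epithelium at E9.5, TMM and the median of ratios gave -0.31 and -0.30 for Krt8, -0.62 and -0.62 for Krt18, and 0.36 and 0.37 for Spint2. These values include the Tubb3 and Neurod1 led cells, which are unequal in number between the libraries. With only cells of 0 Epcam UMIs, Krt18 outside the epithelium had 30.4 UPM in Ctrl against 17.7 in cKO at E9.5. Cldn6 at E9.5 changed sign from -0.19 to 0.0069 with TMM and 0.013 with the median of ratios. With TMM, chosen after seeing the data like the left-out neural-like cells, 7 listed junction genes were lower and 7 higher. Past a 2-fold limit 0 of the 8 members remained at E9.5, and 896 genes in place of 2224, the lower counts following from the limit itself. At E8.5 the count of 268 genes became 147 past 2-fold and 69 with at least 100 UMIs, and in Ctrl between stages 906 became 557 and in cKO 852 became 566 past 2-fold. Leaving out possible doublets left 2 and 3 cells at E8.5, so no ratio is given there. Regions could be weighted equally at E9.5 alone. Of the values that answer a comparison, 81 stayed inside the counting interval of the reported value, or within 1.5 times it for a count, and 11 did not. For the other values, single members and counts of genes together, the numbers were 270 and 32, beside the 2 changes of sign of Cldn6.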
